A study of Mus musculus with 12 samples.

Results

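The 7 genes described here, Brca1, Brca2, Palb2, Atm, Atr, Msh6 and Chek1, are DNA repair and damage checkpoint genes named for their place in pancreatic cancer risk and in the response to damaged DNA. They were chosen by name, with earlier results of these data known. All 7 were found among the 21129 autosomal genes held by the copy-number tables of both lines. The lines, 15376T and 14837T, are primary mouse pancreatic ductal adenocarcinoma (PDAC) cultures, and DNA of each was sequenced as 1 whole-exome library (WES-15376T and WES-14837T). Per the study's methods, both came from C57BL/6 mice carrying ROSA26-LSL-rtTA-IRES-GFP, p48-Cre and Trp53 L/+, a single floxed Trp53 allele, and the cells were grown with 1 µg/mL doxycycline. In this model p48-Cre is driven by the promoter of the pancreatic gene Ptf1a, and each line is a single isolate of tumor cells. The labels call both lines WT and give no other genotype, sex or age. The tail DNA and the RNA libraries of the series are not analysed here. With 1 library per line there is no replicate, so no difference between the lines was tested.

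Homologous recombination copies the sister chromatid to mend a broken chromosome. Brca1 promotes resection of the broken ends, Palb2 bridges Brca1 to Brca2, and Brca2 prepares the resected DNA for strand exchange. Atm and Atr are the kinases that sense double-strand breaks and stretches of single-stranded DNA, and Chek1 is the main checkpoint kinase downstream of Atr. Msh6 recognises mismatched bases. In people, inherited variants of BRCA2, ATM, PALB2 and BRCA1 are known to raise the risk of pancreatic cancer, and tumors without homologous recombination are known for their sensitivity to platinum and PARP inhibitors.

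Each library was described by the log2 ratio of its read depth to a copy-number reference, averaged over stretches of the genome called segments, and by a whole-number copy number that the authors gave each segment. Autosomal segments at a log2 of -0.25 or lower carried fewer than 2 copies (lost here). Those above 0.2 carried more than 2 (gained here), with 0 exceptions among autosomal segments in either line. The libraries held 191 and 235 segments over 217776 and 217778 bins, in the order 15376T and 14837T. The mean read depth of autosomal segments called at 2 copies was 46.0 and 47.5. The log2 of such segments had an SD of 0.0898 and 0.0953. The mean of these, 0.0926, served as the yardstick for a difference between the lines. Each SD is a spread between segments of a single line, limited by the call levels of -0.25 and 0.2. The yardstick is not the error of a difference between the lines, so multiples of it give a scale and not a test. The precision of a member's value rests on its segment, and every gene wholly inside the same segment has the same value.

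The promoters of 3 members are shown because they place the member's start inside a called segment. Positions are those of RefSeq on GRCm38.p6, the assembly whose other name is mm10, the build in the labels. Atm and Palb2 each lie on the minus strand and begin next to a neighbour, so that 60 bases separate Atm from Npat, a histone gene activator, at chr9:53536829-53536888, and 60 bases separate Palb2 from the dynactin gene Dctn5 at chr7:122132981-122133040. Msh6 lies on the plus strand, and the 250 bases before it at chr17:87974800-87975049 overlapped no RefSeq gene. Each sequence is read 5′ to 3′ on the strand of its member, with the CpG dinucleotides in capitals.
Atm: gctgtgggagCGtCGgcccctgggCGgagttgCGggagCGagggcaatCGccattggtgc
Palb2: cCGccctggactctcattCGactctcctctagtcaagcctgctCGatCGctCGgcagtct
Msh6: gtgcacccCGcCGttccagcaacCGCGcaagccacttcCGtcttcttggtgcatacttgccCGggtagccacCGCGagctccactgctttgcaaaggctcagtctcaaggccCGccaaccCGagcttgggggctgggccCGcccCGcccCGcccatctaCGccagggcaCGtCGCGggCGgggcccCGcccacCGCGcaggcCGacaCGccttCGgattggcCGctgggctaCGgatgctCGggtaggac

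All 7 members had more CpGs than the median promoter in the 250 bases taken as their promoter. These windows follow listed starts that are not always the RefSeq starts. The window of Brca2 lay wholly inside the RefSeq span of Brca2, and those of Palb2 and Atm lay partly inside their own genes. The CpG counts of the members ran from 12 for Brca1 to 27 for Msh6, with 15 for Atr, 18 for Brca2 and Chek1, 20 for Palb2 and 24 for Atm. The median of all 32851 promoters in the table was 6, and between 66.5% and 91.4% of promoters held fewer CpGs than a member. The stretches of Atm and Palb2 printed above lay wholly in 1-copy segments of 15376T, and that of Msh6 lay in a 3-copy segment of 14837T.

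The 7 genes did not share a copy number in either line. In 15376T, Palb2, Atm and Atr were called lost and the other 4 stood at 2 copies, which is 3 of 7 lost against a background of 30.0% of all autosomal genes. None was gained there, against 9.18% of genes. In 14837T, Palb2 was the single member lost, against 28.8% of genes, while Brca2 and Msh6 were gained at 3 copies, against 21.5% of genes. Brca1 and Chek1 stood at 2 copies in both lines, as did 41.4% of all genes. The median segment log2 of the members was -0.046 in 15376T and 0.022 in 14837T, beside -0.023 and -0.045 over all autosomal genes. Under a stricter level of 0.3 for the size of the log2, Msh6 was no longer gained, and under 0.5 neither Palb2 nor Brca2 kept its call in 14837T. A share near the background is no result about the members as a group, so the values are given gene by gene.

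**Figure D1:**
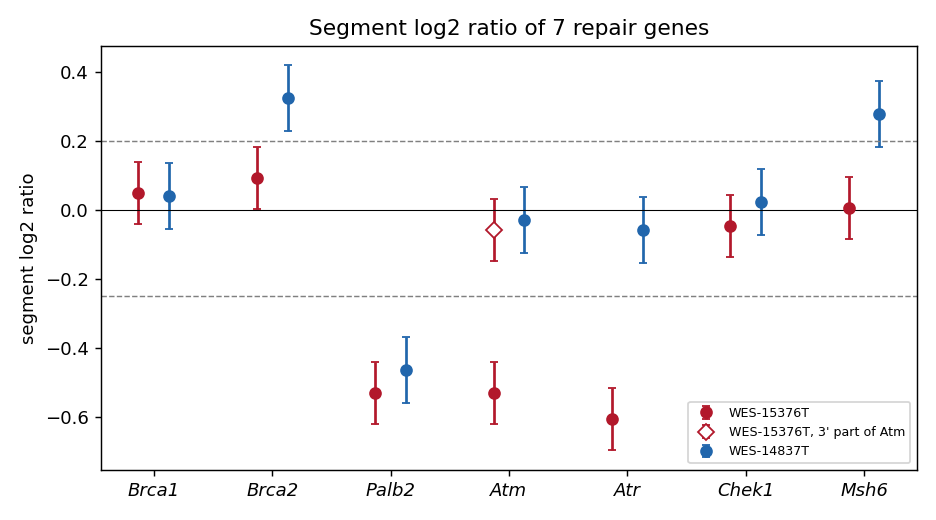
Segment log2 ratio of the 7 repair genes in 15376T and 14837T, 1 filled point per line and gene and an open diamond for the 3′ part of Atm. Bars are the SD of 2-copy segments of the same line (0.0898 and 0.0953), and dashed lines the log2 levels of -0.25 and 0.2 that divide lost, 2-copy and gained calls. Palb2 lies under the lower level in both lines, Atm and Atr in 15376T alone, and Brca2 and Msh6 lie above the upper level in 14837T alone.

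Brca1 (chr11:101488761-101551955), the ubiquitin ligase that directs breaks towards recombination, was the least changed member. Its segment log2 was 0.050 in 15376T and 0.040 in 14837T, from 4026 and 4678 bins at read depths of 45.5 and 47.9. The lines thus differed by 0.0097, or 0.10 of the yardstick SD, and 95.7% of autosomal genes differed by as much or more. The segment began at the same position, 99785922, in both lines, 1.70 Mb before Brca1, and it ended at 119846967 in 15376T and 121956076 in 14837T. The segments on the other side of that shared border were also called at 2 copies.

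Brca2 (chr5:150522297-150570147), which acts on resected DNA, stood at 2 copies in 15376T and was gained in 14837T. Its log2 was 0.094 (2811 bins, read depth 46.3) in 15376T. In 14837T it was 0.32 (1191 bins, read depth 62.7). That made 2.59 copies once centred on the median log2 of autosomal segments weighted by length, -0.049 in that line. The difference of -0.23, 15376T minus 14837T, was 2.49 times the yardstick SD, and 30.1% of autosomal genes differed by at least as much. From read depth without the copy-number reference, the difference was -0.39. Both segments ran to the last bins of chromosome 5, with Brca2 1.16 Mb from their end, and they began at 133319232 in 15376T and at 142435113 in 14837T. The mismatch repair gene Pms2 lay in the same segments as Brca2 and carried the same values.

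Palb2 (chr7:122107262-122132980), the bridge between Brca1 and Brca2, was the only member called lost in both lines, as were 22.4% of all autosomal genes. Its log2 was -0.53 in 15376T and -0.46 in 14837T, at read depths of 31.3 and 37.2. The difference of -0.068 was 0.74 of the yardstick SD, and 67.1% of genes differed by as much or more. From read depth without the reference the difference was -0.20. The extent of the loss was unlike in the 2 lines. In 15376T the segment spanned 122 Mb of chromosome 7 and held 1609 genes over 13453 bins. In 14837T it spanned 7.23 Mb (118941550 to 126169346) and held 70 genes over 909 bins. Its borders there fell within Iqck and Xpo6, and the segments beyond them were still called at 1 copy, with log2 values of -0.36 and -0.30.

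Palb2 also had a gene-level read depth in both lines, since the authors' gene tables list only genes whose log2 is at least 0.40 in size. Over 13 bins its own depth was 43.1 in 15376T and 52.4 in 14837T, higher than the depth of its segment by 0.46 and 0.49 on the log2 scale. Among the other genes with at least 5 bins in the same segment, 18.1% of 873 in 15376T and 7.41% of 54 in 14837T stood as far above their segment or farther. Set against the depth of 2-copy segments of the same line, the depth of Palb2 was -0.096 and 0.14 on the log2 scale. These depths are not corrected for how well each exon was captured, and the part of capture in them was not tested. The ratio of the lines for Palb2 alone, in which a fixed capture yield cancels, was -0.24 on the log2 scale, after each line was scaled to its 2-copy depth. That lay 0.17 below the segment difference of -0.068, which uses the copy-number reference. The same quantity had a mean of -0.046 and an SD of 0.148 over 1983 genes. By depth without the reference, the like measure, the segments differed by -0.20, close to the -0.24 of Palb2. Scaled by the median ratio of genes listed in both lines instead, the ratio of Palb2 was -0.11. The 15 listed neighbours within 1 Mb of Palb2 had ratios from -0.33 to 0.22 with a median of -0.17, so Palb2 sat inside the range of its surroundings.

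Atm (chr9:53437122-53536828), the kinase activated by double-strand breaks, was cut by a segment border in 15376T. The 5′ part of the gene, 56.3 kb or 56.5% of its length, lay in a segment at a log2 of -0.53 called at 1 copy, with 3181 bins and a read depth of 33.5. The 3′ part, 42.7 kb or 42.8%, lay in a segment at -0.058 called at 2 copies, with 560 bins and a read depth of 44.7. Between the end of one segment at 53479788 and the start of the next at 53480542 there were 753 bases without a value. The step across this gap was -0.47, and the border stood 56.3 kb from the start of the gene. In 14837T the whole gene lay in 1 segment (39485759 to 78703849) at -0.029, with 2 copies, 4801 bins and a read depth of 49.1.

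Measured by its larger part, Atm differed between the lines by -0.50, or 5.43 times the yardstick SD, and 7.63% of autosomal genes differed by at least as much. Measured by the 3′ part, a choice made after the data were seen, the difference was -0.029, and 15376T had 2 members lost instead of 3. Borders inside genes were common in these tables, at 78 of 164 (47.6%) in 15376T and 113 of 205 (55.1%) in 14837T. Few genes were cut, since those borders split 0.369% and 0.544% of the autosomal genes. In 15376T, 42 of the borders had a step as large as that in Atm or larger, and the median step was 0.25. None of the other 65 autosomal repair genes was split in 15376T. In 14837T Rbbp8, which starts end resection with Mre11, was split, but both of its segments (log2 of 0.093 and -0.16) were called at 2 copies.

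**Figure D2:**
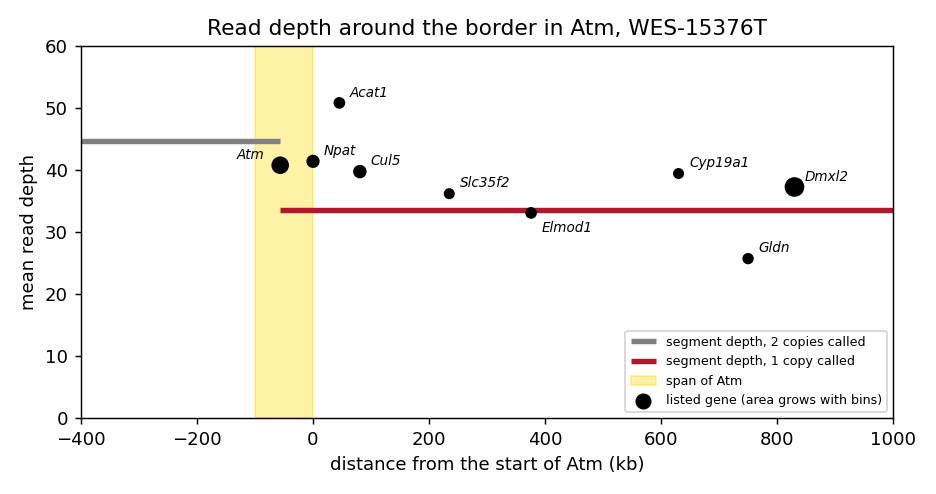
Mean read depth in 15376T against distance from the start of Atm in kb. Lines give the depth of the 2-copy segment (44.7) and the 1-copy segment (33.5), the band is the span of Atm, and each point is the own depth of a listed gene with at least 5 bins, drawn at its first listed base with an area that grows with its bins. Atm and the 3 genes within 100 kb of its start lie between 39.7 and 50.8, above the 1-copy segment. Farther out, Slc35f2, Cyp19a1 and Dmxl2 also lie above it, and Elmod1 and Gldn lie below it.

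Near this border, gene-level depths of 15376T were listed on the 1-copy side only. The listed stretch of Atm, 34 bins on the 1-copy side, had a mean depth of 40.8, higher than its segment by 0.28 on the log2 scale. Of 203 other genes of that segment with at least 5 bins, 26.6% stood as far above or farther. Against the depth of 2-copy segments, that stretch of Atm was at -0.175 on the log2 scale, without correction for capture. Npat, which starts 60 bases away, had a depth of 41.4, the ketone body enzyme gene Acat1 50.8 and the cullin gene Cul5 39.7. These 4 genes, all those listed with at least 5 bins within 100 kb of the start of Atm, were above the segment depth of 33.5. The 5 listed genes with at least 5 bins farther out, up to 1 Mb, ran from 25.7 to 39.4. Of these, Slc35f2 (36.2), Dmxl2 (37.3) and Cyp19a1 (39.4) were also above the segment depth, and Elmod1 (33.1) and Gldn (25.7) below it. The limit of 100 kb was not set in advance. The median of the other genes of the segment with at least 5 bins lay 0.078 above it on the log2 scale. With genes listed on 1 side only, the depths on the 2 sides could not be compared gene by gene. Where in this stretch the copy number changed was not tested.

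Atr (chr9:95857597-95953217), the kinase of stalled replication forks, differed most of the 7 between the lines. Its log2 was -0.61 in 15376T, called at 1 copy from 1352 bins at a read depth of 31.9. In 14837T it was -0.058, called at 2 copies from 853 bins at a read depth of 47.3. The difference of -0.55 was 5.93 times the yardstick SD, and 3.48% of autosomal genes differed by as much or more. The segment of 15376T ran from 79446709 to 100167402, and 4.21 Mb beyond Atr it met a 1.19 Mb segment (100167403 to 101354423) at a log2 of -1.11, called at 0 copies from 93 bins. That border lay between Sox14 and Il20rb. In its own 46 bins Atr had a depth of 44.6 in 15376T, higher than its segment by 0.48 on the log2 scale. Of 67 other genes of that segment with at least 5 bins, 17.9% stood as far above or farther. Against the depth of 2-copy segments, Atr was at -0.046 on the log2 scale, without correction for capture.

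**Figure D3:**
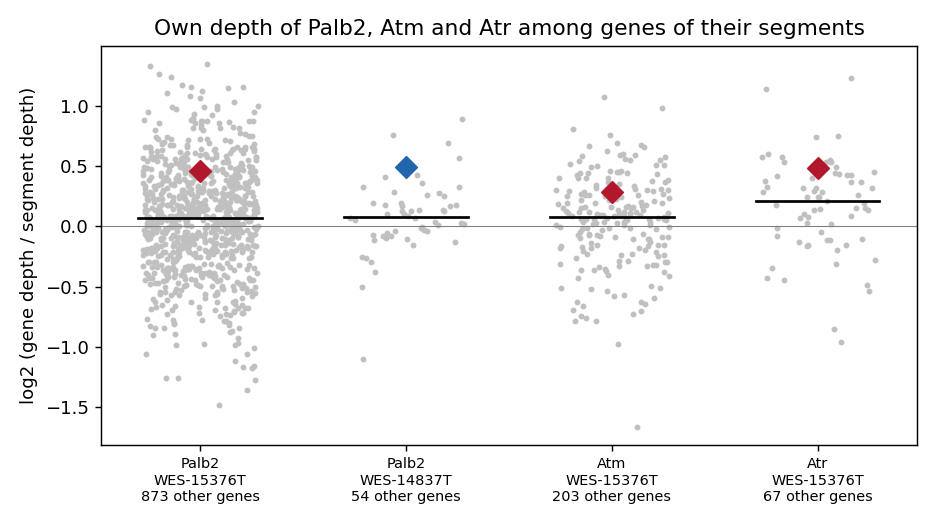
Log2 of each listed gene's own read depth over the depth of its segment, for the segments of Palb2 in both lines and of Atm and Atr in 15376T. Points are the other listed genes with at least 5 bins, short lines their medians and diamonds the repair genes. The diamonds lie at 0.46 and 0.49 (Palb2), 0.28 (Atm) and 0.48 (Atr). The medians of the other genes lie at 0.067 and 0.081 (Palb2), 0.078 (Atm) and 0.21 (Atr). Diamonds and medians are above their segment in all 4 cases.

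Chek1 (chr9:36708482-36726658), the kinase that holds the cell cycle while forks are repaired, was at 2 copies in both lines, with log2 values of -0.046 in 15376T and 0.022 in 14837T. The difference of -0.068 was 0.74 of the yardstick SD, and from read depth without the reference it was -0.15, with 14837T at 0.13. The surroundings of Chek1 also differed. In 15376T Chek1 lay in a segment of 903 bins between 32239268 and 42975131. In 14837T it lay in a short segment of 0.847 Mb (36699178 to 37546206) with 16 genes and 180 bins, whose lower border stood 9.30 kb from the 3′ end of Chek1, towards Acrv1. The segments on either side, 4.46 Mb and 1.93 Mb long, were called at 3 copies with log2 values of 0.26 and 0.24. Chek1 was thus the member nearest to a change of call in 14837T. The steps of -0.24 and -0.22 exceeded the SD of 2-copy segments in that line. They were close in size to the median step of 0.23 over all 205 borders of 14837T. At a stricter level of 0.3 neither neighbouring segment would be called gained.

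Msh6 (chr17:87975050-87990892), the mismatch sensor, stood at 2 copies in 15376T and at 3 in 14837T. Its log2 was 0.0056 (1595 bins, read depth 48.6) and 0.28 (1576 bins, read depth 61.4). The difference of -0.27 was 2.94 times the yardstick SD, and 24.5% of autosomal genes differed by as much or more. The segments were nearly the same stretch in the 2 lines, from 69487870 to 88984621 in 15376T and from 69385413 to 88584036 in 14837T. Beyond the upper end of that stretch, 994 kb from Msh6, 15376T fell to -0.38 and 1 copy over 48 bins. In 14837T the upper border lay 593 kb away, inside Ppp1r21, and the next segment was at 0.081 and 2 copies.

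Between the lines, 4 of the 7 members were called differently, against 29.4% of all autosomal genes. All 4, Atm, Atr, Brca2 and Msh6, had the lower call in 15376T, and none had the higher call there. Over all autosomal genes those directions held for 21.0% and 8.33%. Of the 6204 autosomal genes called differently, 4444 were lower in 15376T and 1760 higher. The direction of the 4 members was thus also the commoner one among all genes called differently. The differences of the members fell into a pair of kinds. Atm and Atr were lost in 15376T and at 2 copies in 14837T, which held for 6.47% of genes. Brca2 and Msh6 were at 2 copies in 15376T and gained in 14837T, which held for 13.4%. No member was lost in one line and gained in the other, as 1.58% of genes were.

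Atm and Atr share a chromosome, and the 3 members on chromosome 9 are not independent readings. In 15376T 57.8% of the 1264 genes of chromosome 9 were lost, and in 14837T 1.27% were. From the border inside Atm up to and including the 0-copy segment beyond Atr, the segments of 15376T lay between -0.53 and -1.11. Chek1 lay on the near side of the border, where the segment that reached Atm was at -0.058. Away from chromosome 9, 1 of the 4 members was lost in each line, beside 28.3% and 30.6% of genes.

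**Figure D4:**
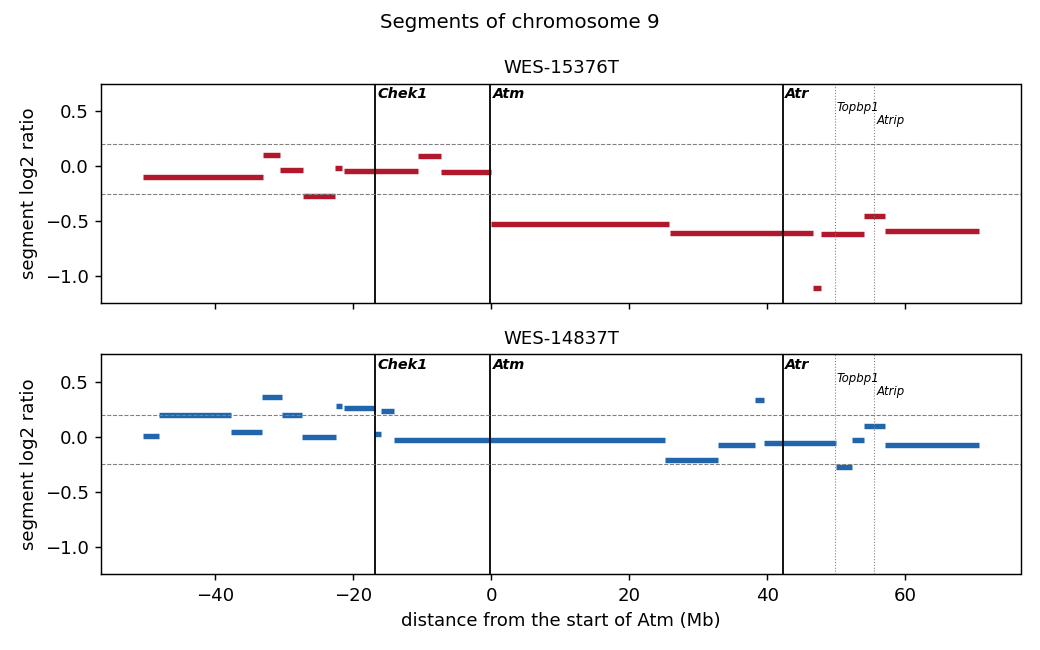
Segment log2 ratio along chromosome 9 in 15376T and 14837T against distance from the start of Atm in Mb, each bar a segment, with the levels of -0.25 and 0.2 dashed and upright lines at the named genes. In 15376T the segments drop from -0.058 to -0.53 inside Atm and stay under -0.25 past Atr, whereas in 14837T Atm (-0.029) and Atr (-0.058) lie at 2 copies and Chek1 (0.022) sits in a short segment between gained ones.

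The log2 ratio of a lost member was above what the loss of 1 of 2 copies in every cell would give. Such a loss would put a segment at a log2 of -1 beside 2-copy segments. The 4 lost readings stood between -0.61 and -0.46. They were then centred on the length-weighted median of autosomal segments, -0.040 in 15376T and -0.049 in 14837T. This gave 1.35 copies for Atr, 1.42 for Palb2 and Atm in 15376T and 1.501 for Palb2 in 14837T. Over all lost segments the median log2 was -0.53 for 15376T and -0.39 for 14837T. The gained readings of Brca2 and Msh6 in 14837T, 2.59 and 2.51 copies, likewise lay between whole numbers, and the median gained segment of that line was at 0.34.

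The B-allele frequency given with each segment ranged from 0.033 to 0.094 for the members in 13 of their 14 readings. The median over autosomal segments, weighted by length, was 0.077 in 15376T and 0.061 in 14837T. The other reading was Palb2 in 14837T, at 0.25. Of the 193 autosomal segments with a value in that line, 13 stood as high or higher, its own among them. Atm was at 0.086 on the lost side of its border and at 0.081 on the other. The number of variant sites behind these values is unknown.

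Beside the 7, the 65 autosomal genes of 5 repair lists gave the pathway around them. In 15376T 20 were lost and 2 gained, and in 14837T 20 were lost and 11 gained. They were called differently in 20 cases (30.8%), 14 of them lower in 15376T and 6 higher. Their median log2 was -0.022 in 15376T and -0.048 in 14837T. The shares lost, 30.8% in each line, stood beside 30.0% and 28.8% of all autosomal genes, and the shares gained, 3.08% in 15376T and 16.9% in 14837T, stood beside 9.18% and 21.5%. The counts of the single lists that follow are read against these shares of all genes.

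The partners of Brca1, Brca2 and Palb2 in homologous recombination numbered 21, with 5 lost and 0 gained in 15376T and 6 lost and 2 gained in 14837T. Rbbp8 was lowest in 15376T at -0.62 and Uimc1, a member of the Brca1-A complex, was lowest in 14837T at -0.47, each being at 2 copies in the other line. Xrcc3 was highest in 14837T, at 0.29 and 3 copies, and stood at 0.12 in 15376T. Of the 12 Fanconi anemia genes, which repair crosslinks together with Brca2 and Palb2, 5 were lost in each line. Fancg went opposite ways, at -0.59 and 1 copy in 15376T and 0.33 and 3 copies in 14837T. Fancd2, the protein that the Fanconi core complex marks with ubiquitin, was highest in 15376T at 0.18, and Fance of that complex was highest in 14837T at 0.34, while Fancc lay in the segment of Uimc1 at -0.47 in 14837T.

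The genes that signal with Atm, Atr and Chek1 numbered 16, with 5 lost and 1 gained in 15376T and 4 lost and 4 gained in 14837T. On the chromosome 9 stretch lost in 15376T lay also Atrip, the subunit that brings Atr to DNA, at -0.46, and Topbp1, an activator of Atr, at -0.62. Both stood at 2 copies in 14837T, at 0.10 and -0.058. Rnf168, a ubiquitin ligase at breaks, was lowest in both lines (-0.65 and -0.49), and Rad9a of the checkpoint clamp was highest in both (0.33 and 0.52).

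Around Msh6, the 7 other mismatch repair genes had 1 lost in each line and 2 gained in 14837T. Msh3, which recognises larger loops, was the lost gene of 14837T at -0.53 and stood at -0.091 in 15376T. Mlh3 was highest in 15376T at 0.12. Pms2, in the segment of Brca2, was among the gained genes of 14837T. Among the 9 genes of end joining and the Parp family, 4 were lost and 1 was gained in each line, and the gained gene was Xrcc6, the Ku70 subunit, at 0.79 and 4 copies in 15376T and 0.31 and 3 copies in 14837T. Polq, the polymerase of microhomology-mediated end joining, was lowest in 15376T at -0.65, and Xrcc4, a ligase partner, was lowest in 14837T at -0.53.

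**Figure D5:**
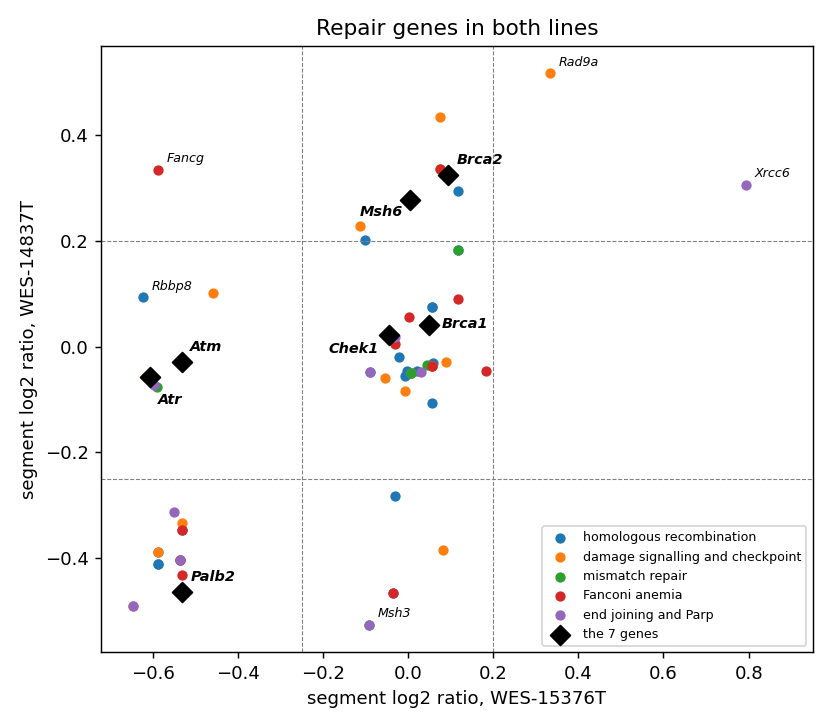
Segment log2 ratio of the 7 repair genes (diamonds) and 65 other autosomal repair genes (points coloured by list) in 14837T against 15376T, with the call levels of -0.25 and 0.2 dashed. Atm and Atr lie left at -0.53 and -0.61 with 14837T near 0, Palb2 lies low in both lines, and Fancg is the gene lost in 15376T and gained in 14837T.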

How the data were processed

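Whole-exome libraries of genomic DNA from 15376T and 14837T were examined, with samples assigned by their labels. The labels name a SureSelect human exome kit and the methods a NimbleGen human exome, both made for human exons, although the DNA is from mouse, and capture yield was not examined here. The authors deposited, for each line, a segment table with log2 ratios, B-allele frequencies (a fraction), copy number, a weight score and read depth (mean coverage), and a gene table with log2, depth and bins. The labels give mm10. The aligner, the caller and the reference of the ratios are not given in the sources used here.

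The members and the repair lists were chosen with earlier results of these data known. Each gene took the segment with the largest overlap with its RefSeq span (GRCm38.p6, 7 of 7 members matched). Of 22036 names, 11 with more than 1 chromosome or no overlap were left out, as were sex chromosomes. Named genes were the 7 members, the lowest and highest gene of each list in each line, genes with opposite calls, with 0 or at least 4 copies, or within 2 Mb in a member's segment, genes at borders within 5 Mb and, for Atm, the listed genes within 1 Mb. Atrip, Topbp1 and the genes near Atm were named after their values were seen. Some genes and a transgene are not reported here. Values were computed with Python 3.11.15, numpy 2.4.6 and pandas 2.3.3, and the steps were tested on simulated data. Gene depth was compared with segment depth as a log2 ratio. Alternatives were other log2 thresholds, recentring, depth without the reference, bin minima and, added after seeing the data, the other segment of Atm.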

Additional observations from a re-analysis of the deposited data

How the results depend on the processing

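No paired analysis was possible because no replicates exist in either line and no test was run. Recentring of the log2 ratios used the length-weighted autosomal median. It moved none of the 30 results recomputed by more than the spread of 2-copy segments or 1.5 times the count. At an absolute log2 of 0.5, WES-14837T had 0 members lost and 0 gained, and the other repair genes had 1 gained in WES-15376T and 2 lost and 1 gained in WES-14837T. At 0.3, WES-14837T had 1 member and 7 other repair genes gained. From segment depth without the copy-number reference, 17 results held, while Palb2 and Chek1 in WES-14837T moved to -0.35 and 0.13 and the differences between the lines to -0.39 for Brca2 and -0.20 for Palb2, the cause of which was not tested. By its other segment, an alternative added after seeing the data, Atm stood at -0.058 in WES-15376T and the lines differed by -0.029, since that segment was called at 2 copies. The own depth of listed members less the median of the other genes of their segment moved by less than the SD of those genes under both bin and distance limits, although for Atm it went from 0.20 to 0.33 with genes within 5 Mb. The ratio of the lines for Palb2 went from -0.24 to -0.11 with the other scaling, less than the SD over genes. Calls rest on a single library per line, so their spread between replicates is unknown.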
